A study of Homo sapiens with 16 samples.

Results

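The regions described here are 959 stretches of the human autosomes at which dimethylation of lysine 9 on histone H3 (H3K9me2) was called in all 4 H3K9me2 libraries of a study of breast cell lines. They were chosen by the presence of H3K9me2 peaks alone, by merging the peaks of the 4 H3K9me2 lists wherever they overlapped by 1 bp or more on chromosomes 1 to 22 and keeping the merged regions with a peak in every list. Merging gave 17981 regions, so the shared regions were 5.33% of them. The study measured 3 modifications of histone H3 by chromatin immunoprecipitation and sequencing (ChIP-seq), and its title places it in work on DNA attached to the nuclear matrix. The labels name no treatment and give the lines MCF-10A, which is non-tumorigenic breast epithelium, and MDA-MB-231, which was established from a metastasis of a breast cancer. Both came from stocks kept in the laboratory and were harvested before confluence. Each mark had 2 libraries per line that the labels call biological replicates, which gave 12 peak lists, and the 4 input libraries were not analysed here.

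H3K9me2 is written mainly by the methyltransferases G9a and GLP and is typical of silenced chromatin, including chromatin held at the nuclear periphery. H3K27me3, the mark of Polycomb repressive complexes, is a separate route to silencing. H3K4me3 lies at active and poised promoters and is usually low where H3K9me2 is high.

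The lists differed in length, and these differences touch several results below. The H3K9me2 lists held 10418 and 8701 autosomal peaks in MCF-10A replicates 1 and 2, and 6086 and 4980 in MDA-MB-231 replicates 1 and 2. Among the H3K27me3 lists, MDA-MB-231 replicate 1 stood apart with 8408 autosomal peaks, against 28371 to 30238 in the other 3, so shares of regions with that mark are given library by library, and means over libraries also without it. The H3K4me3 lists held 15015 to 16174. Reads per peak are not in the files, which leaves the depth unknown, and a shorter list from fewer reads cannot be told apart from one due to weaker enrichment. Positions are on the build hg19 and are counted from 1. No gene names and no sequence are given because no genome or annotation of that build was used here, and signal in the inputs and repeat content at these regions were not measured.

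Because the H3K9me2 lists chose the regions, everything on H3K9me2 itself is given as description, and no result here rests on a test of it. The shared regions took up a larger part of the shorter lists. They held 9.68% and 11.6% of the H3K9me2 peaks of the MCF-10A replicates, and 16.5% and 20.7% of those of the MDA-MB-231 replicates. In covered bases these portions were 13.0%, 15.0%, 18.6% and 23.5%. Of the 5964 regions called in both MCF-10A libraries, 16.1% were shared by all 4 lists, and of the 3025 regions called in both MDA-MB-231 libraries, 31.7% were. The other merged regions comprised 1227 with a peak in 3 libraries, 4191 in both MCF-10A libraries and neither MDA-MB-231 library, 1653 in both MDA-MB-231 libraries and neither MCF-10A library, 546 in a single library of each line and 9405 in a single library.

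Peaks in the shared regions lay towards the top of each list by the authors' score, a value per peak that is used here only for ranking within a list. The median rank of the shared regions was the percentile 82.7, 77.9, 77.7 and 75.3 in MCF-10A replicates 1 and 2 and MDA-MB-231 replicates 1 and 2. Regions just outside the rule, with a peak in 3 libraries, had median percentiles of 66.7, 65.0, 52.0 and 48.5 in the libraries that held them. Weak peaks were present too: 152, 199, 225 and 241 of the 959 regions ranked in the lower 50% of the respective lists.

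Most shared regions were a few kilobases wide. The merged width ranged from 862 to 18574 bp, with a median of 2840 bp and quartiles of 2071 and 4050 bp, and the regions summed to 3.22 Mb. The median merged width was 2224 bp for regions in 3 libraries, 1817 bp for the MCF-10A-only class and 2528 bp for the MDA-MB-231-only class. Of the shared regions, 128 (13.3%) reached 5 kb and 14 reached 10 kb. The merged width grows with the number of lists merged, so the bases covered in all 4 libraries, called the core below, were also measured. The core had a median of 1570 bp, with quartiles of 1295.5 and 2011 bp, and made up a median of 64.0% of the merged width. It exceeded 50% of the merged width in 671 regions, while 25 regions had no base covered in all 4 libraries and joined only through a chain of overlapping peaks.

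The covered width per region was somewhat larger in MDA-MB-231 than in MCF-10A. In MCF-10A replicate 1 it ranged from 675 to 14311 bp with a median of 2043 bp, and in replicate 2 from 425 to 14439 bp with a median of 1941 bp. In MDA-MB-231 replicate 1 it ranged from 775 to 18570 bp with a median of 2419 bp, and in replicate 2 from 711 to 18312 bp with a median of 2125 bp. Both MDA-MB-231 medians were above both MCF-10A medians. The mean of the medians was 1992 ± 72.1 bp in MCF-10A and 2272 ± 208 bp in MDA-MB-231 (SD, n = 2 libraries each), a log2 ratio of 0.19. On the same 959 regions that ratio was 0.09 without MDA-MB-231 replicate 1, the library with the widest H3K9me2 peaks throughout its list (median 2200.5 bp, against 1577 to 1873.5 bp in the other 3). It was 0.04 over the 1298 regions shared by the other 3 lists, and 0.07 over the 129 regions shared by peaks with a score of at least 100. In each library between 897 and 915 of the regions held a single peak, and no region held more than 3. Peaks were wider in MDA-MB-231 over the whole lists too, with medians of 1606 and 1577 bp in MCF-10A and 2200.5 and 1873.5 bp in MDA-MB-231. Median covered widths were 1664 and 1599 bp in the MCF-10A-only class and 2374 and 2013 bp in the MDA-MB-231-only class. The direction was therefore not particular to the shared regions.

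**Figure D1:**
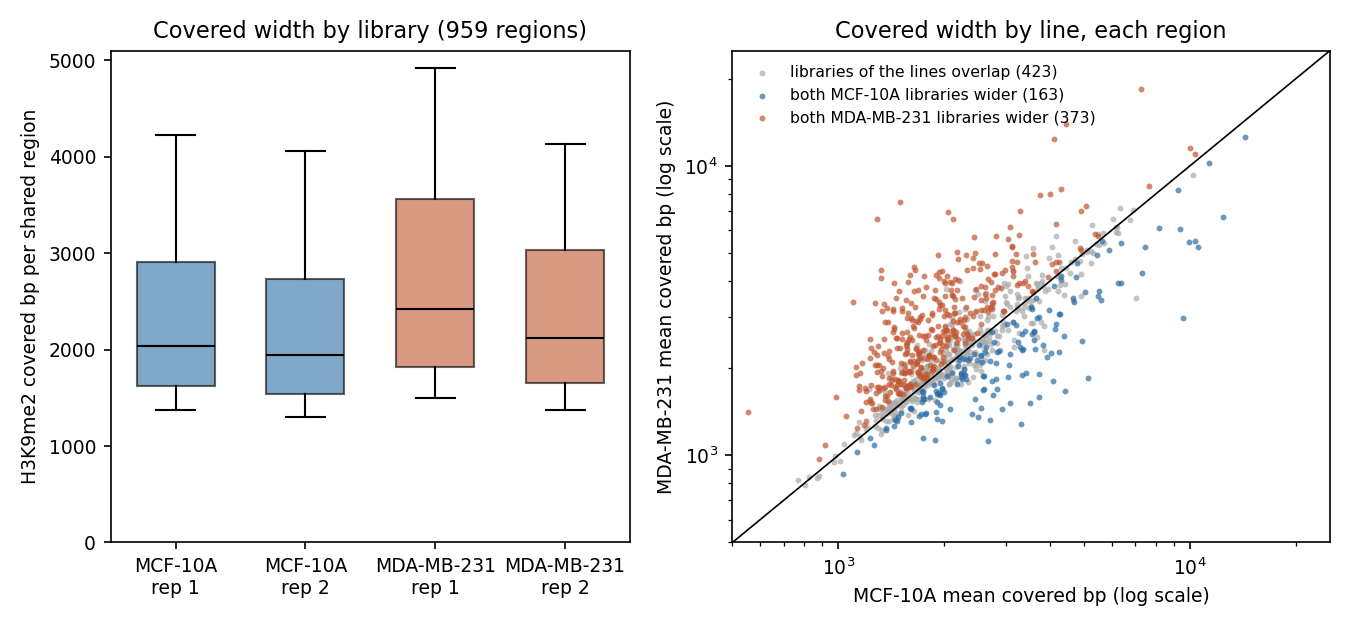
Left, H3K9me2 covered bases per shared region in each library: boxes are quartiles, lines are medians and whiskers run from the 10th to the 90th percentile of the 959 regions, with medians of 2043, 1941, 2419 and 2125 bp. Right, each region's mean covered bases in MCF-10A (x, log scale) and MDA-MB-231 (y, log scale), with the line of equality; 373 regions were wider in both MDA-MB-231 libraries than in either MCF-10A library and 163 the other way round.

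Region by region, the median log2 ratio of MDA-MB-231 to MCF-10A was 0.10, and the middle 80% of regions lay between -0.31 and 0.79. MDA-MB-231 was wider in 617 regions and MCF-10A in 342. The median absolute log2 ratio was 0.15 between replicates and 0.26 between libraries of different lines. MDA-MB-231 replicate 1 was wider than replicate 2 in 700 regions, and MCF-10A replicate 1 wider than replicate 2 in 567. A difference of more than 2-fold was seen in 51 regions in favour of MDA-MB-231 and 13 in favour of MCF-10A. The libraries of the lines did not overlap in 373 regions (38.9%) where MDA-MB-231 was wider, against 27.1% of the 8576 merged regions covered in at least 2 libraries. They did not overlap in 163 regions (17.0%) where MCF-10A was wider, against 54.5%. The 8576 include the regions called in a single line by definition, so nothing is read from these shares. The limma model of covered bases tests values that the choice of regions used, so its calls are given only as counts and nothing is read from them. It called 81 shared regions higher in MDA-MB-231 (8.45%, against 20.2% of all regions tested) and 25 higher in MCF-10A (2.61%, against 49.2%) at an adjusted p of 0.05. The split of 81 to 25 turned with the setting. It was 105 to 4 with coverage scaled to the total of each library. With peaks of a score of at least 100 it was 66 to 156 of the 540 shared regions tested. The share over all regions tested is not given for these settings. In the fit with 81 and 25 calls the median log2 difference was 0.09 over the shared regions and -2.52 over all 8576.

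The positions of the peak edges were compared as well, since the rule asks for overlap only. The start and end fell within 100 bp of each other in all 4 lists in 9 regions (0.938%), within 200 bp in 111 (11.6%) and within 500 bp in 371 (38.7%). The median distance between matching edges was 118 bp between the MCF-10A replicates and 123.5 bp between the MDA-MB-231 replicates. Across the lines it was 169 to 194 bp for the 4 pairs of libraries. Edges of replicates were thus closer at the median than those of any pair of libraries across the lines.

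Some of the best defined regions had almost the same extent in every library. At chr2:87654158-87658638 the covered widths were 4420 and 4466 bp in MCF-10A and 4481 and 4414 bp in MDA-MB-231, and the edges of the 4 lists lay within 60 bp. Its score percentile was at least 99.6 in each list. At chr18:9921-10931, a region of 1011 bp that begins the peaks of chromosome 18, the edges lay within 57 bp. The first peaks of chromosomes 1, 4 and 5 began at bases 9926, 9929 and 9935, so a start near there was not particular to this region. What sets that edge was not tested. At chr5:90438441-90440381 the edges lay within 47 bp although its lowest score percentile was 15.6, so matching edges were not limited to high-scoring peaks.

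The 5 regions with the highest rank in their weakest list were on chromosomes 2, 5 and 16. The top one, chr2:87578051-87586771, covered 7531 and 7731 bp in MCF-10A and 8575 and 8454 bp in MDA-MB-231. At chr2:90479682-90486526 the covered widths were 6674, 6837, 6678 and 6295 bp in the same order of libraries. At chr5:257102-262960 they were 5605, 5625, 5530 and 5449 bp, and neither H3K27me3 nor H3K4me3 was called there in any library. At chr16:33236932-33241555, where they were 4382, 4219, 4485 and 4370 bp, both MCF-10A libraries also held H3K4me3 (546 and 443 bp) and neither MDA-MB-231 library did. H3K27me3 covered 3438 and 2826 bp there in MCF-10A and 0 and 482 bp in MDA-MB-231. It covered 2976, 2535, 1364 and 1929 bp at chr2:90479682-90486526, and 0, 578, 0 and 449 bp at the top region. At chr2:87654158-87658638, also among the 5, it covered 1122, 755, 0 and 0 bp.

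The largest core, 10669 bp, was at chr3:13743292-13757941. It was covered over 14311 and 14439 bp in MCF-10A and 14138 and 11008 bp in MDA-MB-231, with no H3K27me3 and no H3K4me3 peak in any library. The next largest cores were 9947 bp at chr2:91798295-91809964, 9436 bp at chr7:100636874-100648931, 7856 bp at chr9:70652395-70662256 and 7345 bp at chr11:62288471-62301686. Of these 5, the regions on chromosomes 3, 9 and 11 had neither of the other marks in any library. The region on chromosome 7 instead had H3K27me3 over most of its length in all 4 libraries.

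At the other extreme were regions present in all 4 lists but with very unequal widths. At chr17:36283856-36298829 H3K9me2 covered 5020 and 3857 bp in MCF-10A and 14974 and 13013 bp in MDA-MB-231, a log2 ratio of 1.66. H3K27me3 covered 7744 and 6961 bp of the same region in MCF-10A and 4316 and 11054 bp in MDA-MB-231. At chr14:19594105-19604641 H3K9me2 covered 1701 and 1301 bp in MCF-10A and 7540 and 7438 bp in MDA-MB-231 (log2 ratio 2.32), and no base was covered in all 4 libraries. The largest ratio, 2.34 at chr6:41235394-41244699, rested on widths of 1586 and 992 bp against 9306 and 3768 bp, so the MDA-MB-231 replicates differed from each other as well. The remaining pair of the 5 largest ratios, 1.76 at chr20:47099976-47107736 and 1.72 at chr20:57930989-57936076, were both on chromosome 20.

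In the opposite direction, chr2:132514355-132524189 was covered over 9291 and 9818 bp in MCF-10A and 2875 and 3099 bp in MDA-MB-231, a log2 ratio of -1.68. At chr16:89073957-89079259 the widths were 5303 and 4947 bp against 2030 and 1671 bp (-1.47). At chr15:20305449-20311559 they were 4578 and 4269 bp against 1745 and 1586 bp (-1.41). The ratio was -1.36 at chr7:31265760-31269360 and -1.25 at chr7:204201-207703. In all 5 both MCF-10A libraries were above both MDA-MB-231 libraries, which the choice of these regions required.

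Shared regions were spread unevenly over the chromosomes. Chromosomes 7, 11, 1, 5 and 9 held the most, with 97, 90, 83, 79 and 75 regions. Relative to all merged regions of a chromosome, the shared portion was highest on chromosome 9 (9.58%), chromosome 17 (8.35%) and chromosome 11 (7.73%). It was lowest on chromosome 13 (0.946%, 3 of 317 regions), chromosome 16 (1.01%, 8 of 795) and chromosome 18 (1.61%, 5 of 310). On chromosomes 13, 16 and 18 the MDA-MB-231 lists had few regions to share: 7, 13 and 13 were called in both of its libraries, against 122, 379 and 121 in both MCF-10A libraries.

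Chromosome 20 had the reverse balance, with 113 regions called in both MCF-10A libraries and 372 in both MDA-MB-231 libraries. Its 55 shared regions were 48.7% of the former and 14.8% of the latter. They were also wider in MDA-MB-231: the median covered widths were 1957 and 1777 bp in MCF-10A and 3602 and 2828 bp in MDA-MB-231, with a median log2 ratio per region of 0.61. On the other autosomes the 904 shared regions had medians of 2048.5, 1950.5, 2379.5 and 2104 bp and a median log2 ratio of 0.09. MDA-MB-231 was wider in 48 of the 55 regions on chromosome 20 and in 569 of the 904 elsewhere. Chromosome 20 held 207 and 158 H3K9me2 peaks of the whole MCF-10A lists and 718 and 561 of the MDA-MB-231 lists. Thus the whole MDA-MB-231 lists were richer in this chromosome, and the part of that excess in the widths was not tested. Over the whole lists, median peak widths on chromosome 20 were 1593 and 1591 bp in MCF-10A and 2461 and 1990 bp in MDA-MB-231. On the other autosomes they were 1606 and 1577 bp in MCF-10A and 2169 and 1859 bp in MDA-MB-231.

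**Figure D2:**
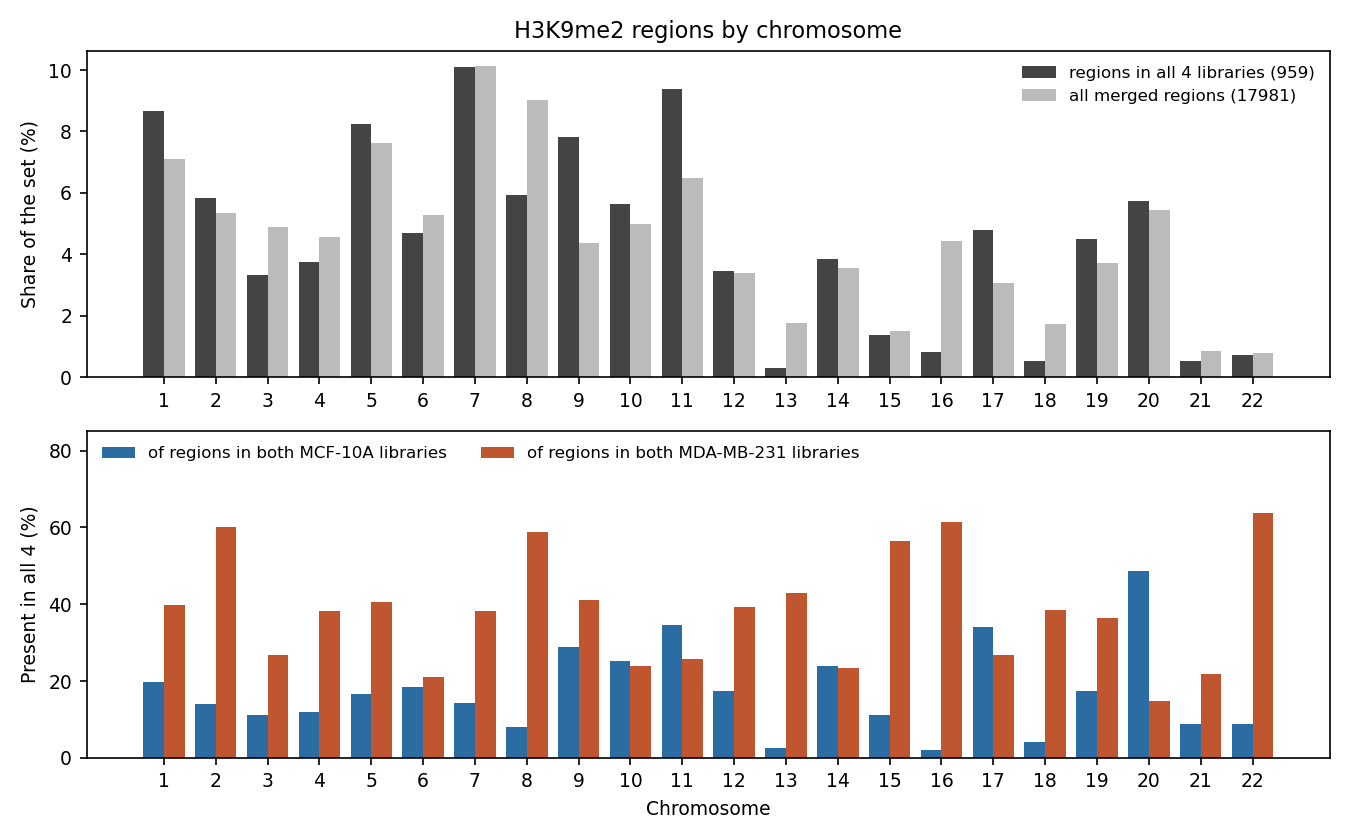
Top, percentage of the 959 shared regions (dark) and of the 17981 merged regions (light) on each autosome. Bottom, shared regions as a percentage of those called in both libraries of MCF-10A (blue) or MDA-MB-231 (orange); chromosome 20 stands at 48.7% and 14.8%, and chromosome 16 at 2.11% and 61.5%.

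The spacing of the shared regions was measured from edge to edge. Another shared region lay within 10 kb of 108 regions (11.3%), within 50 kb of 255 (26.6%), within 100 kb of 355 (37.0%) and within 500 kb of 639 (66.6%). The median distance to the nearest was 195 kb. These values depend on how many regions a class has. Even so, the 1653 MDA-MB-231-only regions were closer together than the 4191 MCF-10A-only regions, with a neighbour of the same class within 100 kb for 67.9% and 48.1%. For the 1227 regions in 3 libraries the value was 31.8%, slightly under that of the smaller shared class.

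**Figure D3:**
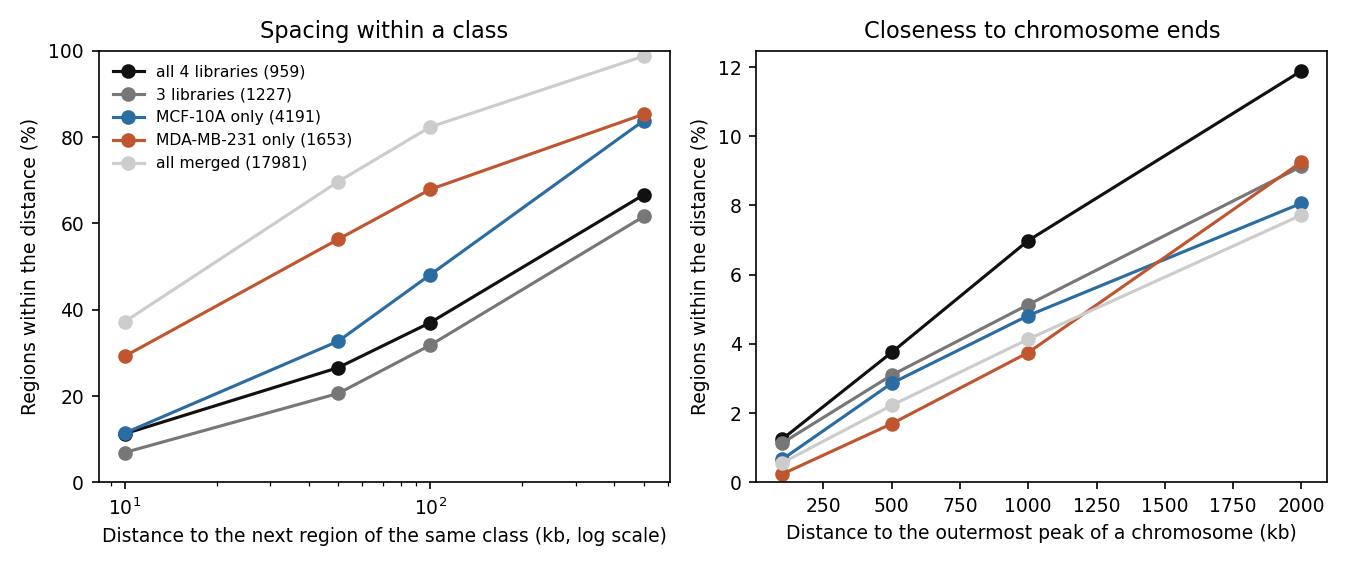
Left, percentage of regions with another region of the same class within the distance on the x axis (kb, log scale). Right, percentage of regions within the distance on the x axis (kb) of the first or last peak of their chromosome; the shared regions stand at 6.99% at 1 Mb, against 4.14% of all merged regions.

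Chaining regions at 100 kb left 604 on their own and placed 355 in 130 groups of 2 or more. There were 79 pairs, 28 groups of 3, 14 groups of 4 and 9 groups of 5 or more with 57 regions between them. Grouped regions were wider than isolated ones, with median merged widths of 3272 and 2655 bp. H3K27me3 overlapped 35.2%, 34.1%, 17.2% and 40.6% of the grouped regions in MCF-10A replicates 1 and 2 and MDA-MB-231 replicates 1 and 2. For the isolated regions the values were 21.2%, 21.2%, 12.7% and 28.6%, lower in each of the 4 libraries. Widths were not matched in this comparison. Over all shared regions the overlap was 20.2%, 21.6%, 6.25% and 23.6% at merged widths under 2000 bp, and 39.1%, 40.6%, 26.6% and 46.1% from 5000 bp.

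The largest group, 9 regions over 251 kb at chr8:142478974-142729493, held both repressive marks, as did the groups below. H3K9me2 covered 19.0% and 17.6% of that span in MCF-10A and 22.1% and 15.2% in MDA-MB-231, and H3K27me3 covered 20.6% and 20.2% in MCF-10A and 8.43% and 24.0% in MDA-MB-231. H3K27me3 overlapped 7 of its 9 regions in at least 1 library and 3 of them in all 4, and H3K4me3 was called nowhere in the span. The second group, 8 regions over 150 kb at chr2:91724659-91874322, had H3K9me2 over 31.0% and 34.3% of its span in MCF-10A and 40.1% and 43.6% in MDA-MB-231. H3K27me3 covered 18.3% and 15.9% of that span in MCF-10A and 1.14% and 18.6% in MDA-MB-231. It overlapped 7 of the 8 regions in at least 1 library and 0 in all 4. At chr2:87578051-87731153, 6 regions included 2 of the 5 highest-ranked ones, and H3K9me2 covered 31.0%, 30.5%, 29.1% and 21.2% of the span. H3K27me3 overlapped 3 of these 6 regions in at least 1 library. A further group of 7 lay at chr7:155780158-156060375, with H3K27me3 in 4 of its regions.

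The group at chr1:161411290-161578207 had H3K4me3 on 6 of its 7 regions in all 4 libraries. H3K27me3 overlapped 6 of the 7 regions in at least 1 library and 0 in all 4. In the first region of the group H3K4me3 covered 2301 and 2151 bp in MCF-10A and 1015 and 18 bp in MDA-MB-231. There the overlap in MDA-MB-231 replicate 2 was only the edge of a peak. In the 4 groups above no shared region held an H3K4me3 peak, although H3K4me3 covered up to 2.18% of the span of the group of 8 on chromosome 2, between its shared regions. The first 4 regions of the chromosome 1 group began 7364, 8491 and 6225 bp apart. The edges of the 4 lists lay within 1162 bp in the first of them and within 49, 288 and 125 bp in the next 3. At chr1:161418654-161424845 the widths were 6188 and 6124 bp in MCF-10A and 6095 and 6186 bp in MDA-MB-231. H3K4me3 covered 2299 and 2456 bp of the same region in MCF-10A and 1241 and 774 bp in MDA-MB-231. At chr1:161433370-161439656 H3K4me3 covered 2532 and 2695 bp against 954 and 802 bp, also without overlap between the lines. In both regions H3K4me3 lay towards the edges in each library and left the midpoint free. Counted from the start of the group, H3K9me2 of MCF-10A replicate 1 ran from 7.364 to 13.552 kb in the former region. H3K4me3 peaks of MCF-10A replicate 1 ran from 5.528 to 7.494, 7.596 to 9.047 and 12.838 to 14.114 kb. The balance between the lines was not the same throughout the group. At chr1:161494340-161496660 H3K4me3 covered 754 and 720 bp in MCF-10A and 916 and 787 bp in MDA-MB-231. At chr1:161575856-161578207 the values of 644 and 628 bp and of 622 and 744 bp overlapped. The exception, chr1:161516685-161521491, had no H3K4me3, and its H3K9me2 widths of 1600 and 1045 bp in MCF-10A and 4807 and 3366 bp in MDA-MB-231 were far apart.

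**Figure D4:**
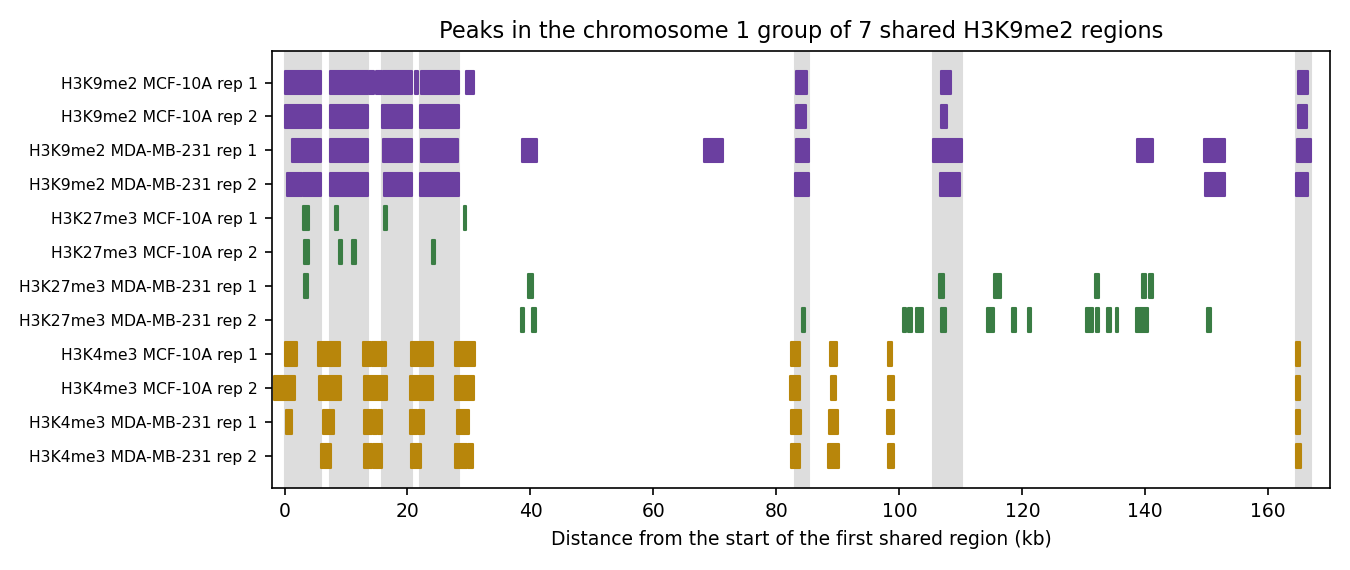
Peaks of the 12 lists (rows) across the chromosome 1 group of 7 shared regions (grey bands), against distance from the start of the first region in kb. H3K4me3 peaks (ochre) touch 6 of the 7 bands in all 4 libraries. Within the first 4 bands they lie towards the band edges and are narrower than the H3K9me2 peaks (purple).

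Assembly gaps could not be placed without a genome of this build, so stretches of at least 1 Mb with no peak in any of the 12 lists were used in their place. Neither gaps nor genes were placed on these stretches, which may therefore hold sequence other than gaps. There were 133 such stretches on the autosomes, with a median length of 1.57 Mb and a longest of 21.1 Mb on chromosome 1. Within 1 Mb of such a stretch lay 70 shared regions (7.30%), against 8.32% of all merged regions, 6.68% of those in 3 libraries, 9.33% of the MCF-10A-only class and 8.05% of the MDA-MB-231-only class. Within 500 kb the share was 4.69% against 4.30% of all merged regions, and within 100 kb 1.46% against 1.33%, so the order depended on the distance. For the longest stretch of each chromosome the count was 19 regions (1.98%), against 1.59% of all merged regions and 2.66% of the MDA-MB-231-only class.

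The share of regions close to the chromosome ends was larger for the shared regions than for the other classes, a difference that was not tested. Within 1 Mb of the first or last peak of a chromosome lay 67 of them (6.99%), against 4.14% of all merged regions, 5.13% of those in 3 libraries, 4.82% of the MCF-10A-only class and 3.75% of the MDA-MB-231-only class. Within 100 kb the values were 12 regions (1.25%) against 0.567% of all merged regions. In 4 cases a shared region was itself the outermost region: chr5:9935-12172, chr18:9921-10931, chr15:20305449-20311559 and chr15:102505144-102509392. The first peaks of chromosomes 3, 13, 14, 15, 21 and 22 lie far from base 1, so on these a first peak does not mark the end of the chromosome. Chromosome 20 contributed 7 regions near its last peak, chromosomes 5 and 11 each 6 near their first.

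The 67 shared regions within 1 Mb of an outermost peak went both ways in width. At chr5:9935-12172 the covered widths were 2178 and 2238 bp in MCF-10A and 2151 and 2129 bp in MDA-MB-231. By contrast, chr14:19594105-19604641, chr15:20305449-20311559 and chr7:204201-207703, among the 10 most unequal regions described above, also lay there, the first wider in MDA-MB-231 and the other two in MCF-10A. Over all 67 the median log2 ratio was -0.03, and MDA-MB-231 was wider in 32, against 585 of the 892 further away. H3K27me3 overlapped fewer of them in each library, at 14.9%, 16.4%, 7.46% and 11.9% in the 4 libraries, against 27.2%, 26.7%, 14.9% and 34.6% of those further away.

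H3K27me3, which was not used to choose the shared regions, was called on a minority of them in every library. It overlapped 253 regions (26.4%, interval 23.6% to 29.3%) in MCF-10A replicate 1 and 249 (26.0%, 23.2% to 28.9%) in replicate 2. In MDA-MB-231 it overlapped 138 (14.4%, 12.2% to 16.8%) in replicate 1, the short list, and 317 (33.1%, 30.1% to 36.1%) in replicate 2. Intervals are 95% confidence limits by the exact Clopper-Pearson method, which take in no error other than that of counting regions. The MDA-MB-231 values lay on either side of the MCF-10A ones: the means were 26.2 ± 0.295% in MCF-10A and 23.7 ± 13.2% in MDA-MB-231 (SD, n = 2 each; exact permutation test, two-sided, p = 1). Without MDA-MB-231 replicate 1 the difference turned from -2.45 to 6.88 percentage points, and with all H3K27me3 lists limited to the same number of top-scoring peaks it was 2.97 points. No direction between the lines can therefore be given. In bases, H3K27me3 covered 9.70%, 10.1%, 4.09% and 12.1% of the shared regions. Over all merged regions H3K27me3 overlapped 13.9%, 13.6%, 7.54% and 18.4% in the same order of libraries, a smaller share in each. In bases it covered 6.37%, 6.35%, 3.21% and 9.23% of them. Widths were not matched here.

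The share with H3K27me3 was larger for the shared regions than for regions marked only in MCF-10A. The latter had it at 9.85%, 9.76%, 1.46% and 4.08% in the 4 libraries, a mean of 18.7 points less, and the difference had the same sign in 4 of 4 libraries (exact sign permutation, two-sided, p = 0.125, the smallest value 4 libraries allow). Against regions in 3 libraries the shared regions were 6.75 points higher, also in 4 of 4 (exact sign permutation p = 0.125). Without MDA-MB-231 replicate 1 these differences were 20.6 and 7.06 points. The difference from regions in 3 libraries was smaller by other measures. It was 2.00 points with the midpoint of a region in a peak and 1.19 points in bases covered, each in 4 of 4 libraries. The shared regions were wider, with a median merged width of 2840 bp against 2224 bp for regions in 3 libraries. Their widths were not matched, so the part of width in the 6.75 points was not tested. Against the MDA-MB-231-only class the libraries split. That class had H3K27me3 at 24.1%, 23.6%, 23.8% and 50.7%, so the shared regions were higher in the 2 MCF-10A libraries and lower in the 2 MDA-MB-231 libraries (mean difference -5.62 points, exact sign permutation p = 0.5). This mean was -4.34 points without MDA-MB-231 replicate 1, -1.61 without replicate 2, and -8.24 and -8.28 without MCF-10A replicates 1 and 2. None of these tests could reach 0.05 with 4 libraries.

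Wider regions have more room for an overlap. The shared regions and the classes of a single line were therefore also set side by side at merged widths of 2000 to 3000 bp. There H3K27me3 overlapped 24.3%, 21.1%, 11.0% and 28.7% of 317 shared regions. It overlapped 12.4%, 11.3%, 1.76% and 5.02% of 1196 MCF-10A-only regions and 21.0%, 21.5%, 19.2% and 47.9% of 657 MDA-MB-231-only regions. The shared regions were above the MCF-10A-only class in all 4 libraries at this width too. Against the MDA-MB-231-only class at this width they were higher in MCF-10A replicate 1 and lower in the other 3 libraries. When the midpoint of a region had to lie in a peak, the difference from the MCF-10A-only class was 7.03 points, again in 4 of 4 libraries.

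**Figure D5:**
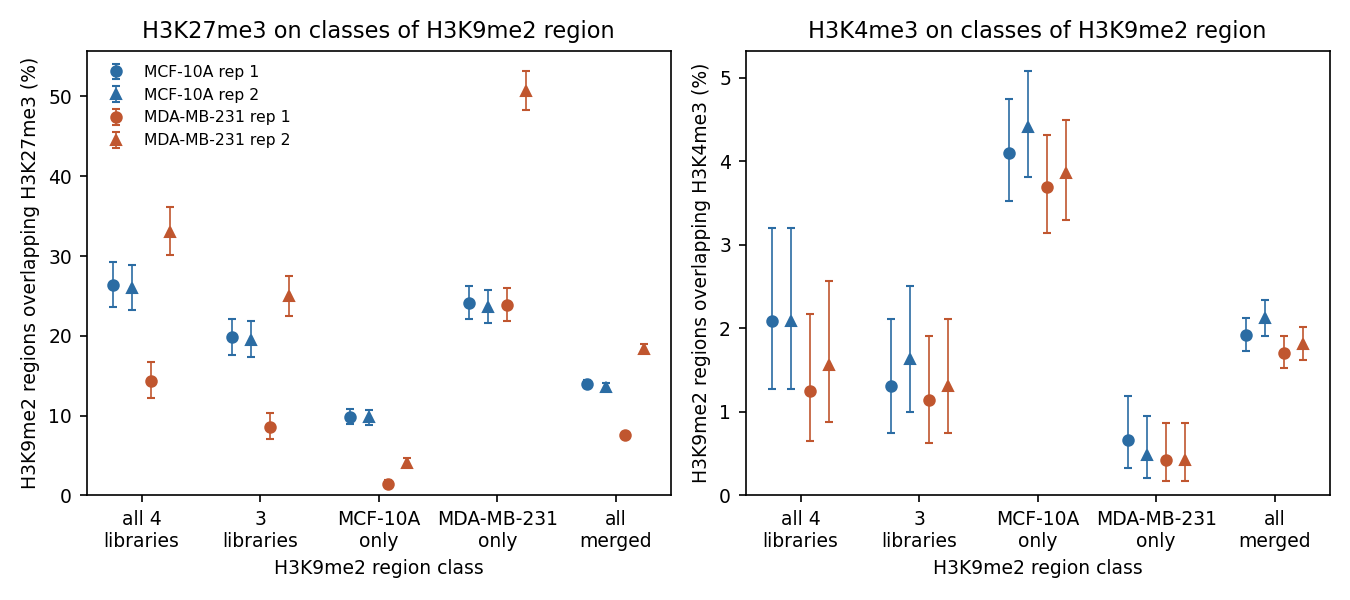
Percentage of H3K9me2 regions of each class that overlap a peak of H3K27me3 (left) or H3K4me3 (right), for each of the 4 libraries of that mark; bars are exact 95% binomial intervals. For H3K27me3 the shared regions stand at 26.4%, 26.0%, 14.4% and 33.1%, and MDA-MB-231 replicate 1 is the lowest library in 4 of the 5 classes.

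Taking the libraries together, 490 shared regions (51.1%) had H3K27me3 in no library, 177 in 1, 147 in 2, 94 in 3 and 51 (5.32%) in all 4. Without MDA-MB-231 replicate 1 the number with H3K27me3 in every remaining library was 115. The mark was found in both MCF-10A libraries and neither MDA-MB-231 library in 48 regions, and the other way round in 38. A further 85 had it in MDA-MB-231 replicate 2 alone. Regions with H3K27me3 in at least 1 library were wider than those without (median merged width 3073 against 2585.5 bp), and their H3K9me2 was wider in MDA-MB-231 in 70.4% against 58.6%. The 51 regions with it in all 4 had a median width of 4563 bp, and 9 of them were on chromosome 8 and 8 on chromosome 1.

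In these 51 regions the marks could cover much the same bases. At chr7:100636874-100648931 H3K27me3 covered 8509 and 9376 bp in MCF-10A and 8613 and 9374 bp in MDA-MB-231, beside H3K9me2 over 10007, 10716, 11107 and 10864 bp. At chr1:2583015-2588839 H3K27me3 covered 5153, 4688, 4584 and 4384 bp and H3K9me2 5523, 5445, 5798 and 5628 bp. At chr8:86737484-86755880 H3K27me3 covered 3795, 4109, 2589 and 4049 bp of a region of 18397 bp. H3K27me3 was narrower still at chr11:66187542-66193562, with 1519, 1081, 724 and 1158 bp of 6021 bp. Peaks of both marks from bulk cells do not show that the marks sit on the same chromosomes.

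The limma model of H3K27me3 coverage mostly restates these patterns of presence. It could test the 292 shared regions that held the mark in at least 2 libraries. It called 36 (12.3%, against 16.1% of the 2741 regions tested) higher in MDA-MB-231 and 47 (16.1%, against 21.8%) higher in MCF-10A at an adjusted p of 0.05. Of these, 35 of the 36 and all 47 were listed at 0 in both libraries of the other line, so they passed the filter only through the line where they were covered, and the calls are no evidence beyond the 38 and 48 regions above. The median log2 difference was -0.34 over the shared regions tested and -0.27 over all regions tested. Leaving out either MCF-10A library or MDA-MB-231 replicate 1 left 0 calls in both directions, while leaving out MDA-MB-231 replicate 2 gave 1 and 76. In the fits with 0 calls, limma gave an unadjusted p under 0.05 to 8, 11 and 10 regions higher in MDA-MB-231 and to 0, 1 and 43 higher in MCF-10A.

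By share of regions overlapped, H3K4me3 was about as infrequent on the shared regions as on H3K9me2 regions in general. It overlapped 20 of them (2.09%, interval 1.28% to 3.20%) in each MCF-10A library, 12 (1.25%) in MDA-MB-231 replicate 1 and 15 (1.56%) in replicate 2, and 933 (97.3%) had it in no library. Over all merged regions the shares were 1.92%, 2.12%, 1.71% and 1.81%. The means were 2.09 ± 0% in MCF-10A and 1.41 ± 0.221% in MDA-MB-231 (SD, n = 2 each), and the difference of -0.68 points had an exact permutation p of 0.333, the smallest that 2 against 2 libraries allow (two-sided). In MCF-10A-only regions the H3K4me3 shares were 4.10%, 4.41%, 3.70% and 3.87%, each higher than the shared regions in 4 of 4 libraries (mean difference -2.27 points for the shared regions, exact sign permutation p = 0.125). In MDA-MB-231-only regions they were 0.67%, 0.48%, 0.42% and 0.42%, lower than the shared regions in 4 of 4 (1.25 points, exact sign permutation p = 0.125). With the midpoint of the region required to lie in the peak, this last difference was -0.092 points, on a few regions only. The midpoint shares on the shared regions were 0.209%, 0.104%, 0% and 0.104%, so most overlaps left the midpoint free. Over all merged regions the midpoint shares were 0.122%, 0.245%, 0.239% and 0.284%. In bases, H3K4me3 covered 0.577%, 0.575%, 0.289% and 0.281% of the shared regions and 0.390%, 0.462%, 0.349% and 0.373% of all merged regions. The shared regions were thus higher in the MCF-10A libraries and lower in the MDA-MB-231 libraries by that measure.

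The distance to H3K4me3 was smaller at the median for shared regions than for either class of a single line, but the share close by was not set apart from the MCF-10A-only class. The median distance to the nearest H3K4me3 peak was 74.0 and 66.8 kb in MCF-10A and 70.8 and 73.0 kb in MDA-MB-231. For MCF-10A-only regions it was 97.5 to 106 kb and for MDA-MB-231-only regions 108 to 123 kb over the 4 libraries. Within 10 kb of an H3K4me3 peak lay 11.1%, 12.8%, 11.8% and 11.7% of the shared regions, 11.6%, 12.5%, 11.8% and 11.5% of the MCF-10A-only regions, and 5.08% to 6.59% of the MDA-MB-231-only regions.

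The 12 shared regions with H3K4me3 in all 4 libraries were mostly on chromosome 1. It held 8 of them, 6 in the group described above, and chromosomes 3, 9, 19 and 20 held 1 each. H3K4me3 covered between 13 and 2695 bp of these regions, a median of 19.9% of their width. At chr1:148925700-148933651 H3K4me3 covered 1432, 1545, 1241 and 1531 bp, H3K9me2 6473, 6215, 7952 and 6378 bp, and H3K27me3 5711 and 4925 bp in MCF-10A and 0 and 2884 bp in MDA-MB-231. At chr1:16971274-16976951 H3K4me3 covered 448 and 459 bp in MCF-10A and 517 and 347 bp in MDA-MB-231, with no H3K27me3 in any library. The limma model could test 17 shared regions for H3K4me3. It called 4 higher in MCF-10A (against 12.1% of the 380 regions tested), 3 of which were listed at 0 in MDA-MB-231, and at most 1 region was called with any library left out. It called 0 higher in MDA-MB-231 (against 8.68%), with 0 in that direction at an unadjusted p under 0.05. The median log2 difference was -0.13 over these 17 and -0.16 over all 380.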

How the data were processed

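The deposited lists give each peak a position, a name and a score set by the authors, which is 50 or more throughout and whose scale the sources leave unstated. Per the submitters' processing notes, the build was hg19 and the tools were MACS 1.4, Bowtie2, CASAVA 1.6 and bedtools, with no roles or settings. How the inputs entered peak calling is likewise not stated. Lists are per replicate, so libraries could be compared.

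H3K9me2 peaks were merged as stated in the report. Covered bases of each mark per merged region were computed with Python 3.11.15, NumPy 2.4.6, SciPy 1.17.1 and pandas 2.3.3, and figures with matplotlib 3.10.9. Shares were compared over libraries by exact permutation. For each mark, limma 3.58.1 in R 4.3.3 (trend, empirical Bayes) was fitted to log2(covered bp + 100 bp) for every merged region covered in at least 2 libraries, with Benjamini-Hochberg adjustment over all of them and a threshold of 0.05. These log2 differences understate changes of thinly covered regions, and differ from the plain log2 ratios of mean covered bases. The limma step was tested on simulated data, where it missed the changes put into H3K27me3 and made more false calls for H3K9me2 than its threshold allows, so its calls are given as counts only.

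The regions named were the 5 highest by lowest score percentile, core, H3K27me3 or H3K4me3 in all 4 libraries with the largest core, the 5 largest and 5 smallest width ratios without overlap, and the 5 largest groups; chr18:9921-10931, chr5:90438441-90440381, chr5:9935-12172, chr15:102505144-102509392 and chr1:161516685-161521491 were added after their values were seen. The regions, classes and tests were chosen with earlier results of these data known. Alternatives were pseudocounts of 10 and 500 bp, all regions with any coverage, scaling to total coverage, a score of at least 100, equal list lengths, other overlap rules and distances, the replicate number as a block, and each library left out. Nothing in the labels says what equal replicate numbers share. Limma p-values rest on the spread between these libraries, with variances moderated over all regions tested, and region counts measure no spread. With no read counts, the precision rests on 2 libraries per line. Chromosomes X and Y and contigs were left out of the comparisons.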

Additional observations from a re-analysis of the deposited data

Results flagged for a closer look

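The difference in H3K27me3 between the shared regions and the MDA-MB-231-only regions had opposite signs in the lines. The shared regions were higher by 2.24 percentage points in MCF-10A replicate 1 and by 2.37 in replicate 2, and the difference was -9.45 points in MDA-MB-231 replicate 1 and -17.6 in replicate 2. The contrast between the lines was not tested. The sign in MCF-10A did not hold in every width class: at merged widths of 2000 to 3000 bp replicate 2 had 21.1% on shared against 21.5% on MDA-MB-231-only regions, and at 3000 to 5000 bp replicate 1 had 27.5% against 28.2%.

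Outside the autosomes, 12 of 346 merged H3K9me2 regions on chromosome X had a peak in all 4 lists. On contigs not placed on a chromosome 6 of 70 merged regions did (8.57%).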

How the results depend on the processing

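The number of shared regions fell from 959 to 129 when peaks scoring under 100 were dropped. Their number was 663 with lists of equal length, 734 when each library had to cover 50% of the region, and 1097 to 1425 when a library was left out and presence in the other 3 was asked for. The difference between the lines in H3K27me3 share, -2.45 points, reversed to 2.97 with equal list lengths and ranged from -11.8 to 6.88 with a library left out, 6.88 being the value without MDA-MB-231 replicate 1. The comparison of H3K4me3 with the MDA-MB-231-only class reversed to -0.092 points at midpoints, an alternative chosen after seeing the data, as were the width ratio on unchanged regions with a library left out, the comparison with regions in 3 libraries under other settings, the other midpoint and covered-base shares and the libraries left out for class comparisons and for the counts by number of libraries. Regions with H3K27me3 in every library numbered 56 to 115 with a library left out. The share near a peak-free stretch or an outermost peak, 14.1% at 1 Mb, was 8.45% at 500 kb, 25.7% at 2 Mb and 11.1% for stretches of at least 2 Mb. The share with a neighbour, 37.0% at 100 kb, was 26.6% at 50 kb and 66.6% at 500 kb. These shares follow from the distance set; for the other changes the cause was not tested.

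Limma calls moved most. The share called over all regions tested is not given for these other settings. The counts therefore do not tell a change in the shared regions from a change in the whole fit. For H3K9me2, the 81 regions higher in MDA-MB-231 became 49 with all regions of any coverage and 41 to 117 with a library left out, and the 25 higher in MCF-10A became 15 with all regions, 4 with scaling, 156 of 540 with a score of at least 100, and 13 to 69 with a library left out. For H3K27me3, the 36 higher in MDA-MB-231 became 0 with all regions, 6 with a score of at least 100 and 0 to 1 with a library left out, and the 47 higher in MCF-10A became 0 with all regions and 0 to 76. At an unadjusted p under 0.05, the fit with all regions had 40 and 53. For H3K4me3, the 4 higher in MCF-10A became 0 to 1 with a library left out. Where an arm had 1 library left, its spread was assumed to be that of the other line.

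The deviations of equal replicate numbers had r = 0.0387, 0.0141 and 0.067 for H3K9me2, H3K27me3 and H3K4me3 across regions, which are not independent replicates. For H3K9me2 these include the 4191 and 1653 regions called in a single line, where the other line has no deviation. Such regions draw r towards 0, so these values cannot show whether equal replicate numbers share anything. With the replicate number as a block, limma called 60 and 17 H3K9me2 regions, 36 and 45 H3K27me3 regions, and 0 and 3 H3K4me3 regions, higher in MDA-MB-231 and MCF-10A respectively. The share over all regions tested is not given for this setting either, so nothing is read from these counts.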
